A study of Mus musculus with 6 samples.

Results

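Serpins are a family of proteins most of which block proteases, and their genes were followed here in MLE-12 mouse lung epithelial cells given cigarette smoke extract (CSE). The genes were taken from the GENCODE vM21 annotation as all protein-coding genes whose symbol starts with Serpin, except Serpinh1, which encodes a collagen chaperone. This gave 60 genes out of 36047 in the whole annotation. Polyadenylated RNA was sequenced from 3 libraries of CSE-treated and 3 libraries of PBS-treated wild-type cells of the same line, which was immortalised with the large T antigen of a virus. CSE was given at 5% (optical density 2.0) to cultures at 30% density, the PBS cultures received the same volume of PBS, and both were collected after 24 h. All cells grew in medium with serum at a low percentage, insulin-transferrin-selenium and antibiotics, and the labels do not tell separate cultures from repeat libraries of 1 culture, so every p-value below measures only library-to-library spread, part or all of which may be technical. The extraction text of the labels speaks of lung tissue although every sample is described as the cell line.

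A serpin carries an exposed reactive centre loop that a target protease takes for a substrate. When the protease cuts the loop, the serpin changes shape and traps the enzyme in a complex that cannot be undone. In the lung the family is known for the balance between neutrophil proteases and their inhibitors and for intracellular (clade B) serpins that protect cells from proteases of their own granules or of attacking lymphocytes. In the mouse several serpins of humans are represented by clusters of close copies.

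For some of the Serpinb6, Serpinb9 and Serpina3 copies described below, the coding stretch around that loop, from the conserved hinge to the conserved strand after it, is shown so that a reader can see how far apart genes that share reads are. The sequences are from the GENCODE vM21 transcripts on GRCm38, written 5′ to 3′ on the coding strand, and in the second and later gene of each set capitals mark bases that differ from the first gene in a pairwise alignment. The Serpinb6 set lies on chromosome 13, at chr13:33879997-33880086 (minus strand) for Serpinb6c, chr13:33918107-33918199 (minus strand) for Serpinb6a and chr13:32978201-32978287 (plus strand) for Serpinb6b.
Serpinb6c: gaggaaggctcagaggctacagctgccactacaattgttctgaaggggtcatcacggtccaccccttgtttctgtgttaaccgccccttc
Serpinb6a: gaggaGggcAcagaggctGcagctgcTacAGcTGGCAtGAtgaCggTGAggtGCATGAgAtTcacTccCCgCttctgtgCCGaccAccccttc
Serpinb6b: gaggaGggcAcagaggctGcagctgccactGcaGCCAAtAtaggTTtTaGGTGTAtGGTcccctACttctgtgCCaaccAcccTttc
The Serpinb9 pair lies at chr13:33039796-33039894 for Serpinb9b and chr13:33015693-33015782 for Serpinb9, both on the plus strand.
Serpinb9b: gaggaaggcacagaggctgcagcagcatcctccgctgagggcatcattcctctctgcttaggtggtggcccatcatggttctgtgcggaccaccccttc
Serpinb9: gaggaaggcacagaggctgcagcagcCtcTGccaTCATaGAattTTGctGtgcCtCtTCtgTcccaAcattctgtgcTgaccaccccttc
The Serpina3 set lies on the plus strand of chromosome 12, at chr12:104241066-104241161 for Serpina3g, chr12:104268474-104268569 for Serpina3i and chr12:104413442-104413537 for Serpina3n.
Serpina3g: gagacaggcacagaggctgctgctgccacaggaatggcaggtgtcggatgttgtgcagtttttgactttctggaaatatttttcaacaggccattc
Serpina3i: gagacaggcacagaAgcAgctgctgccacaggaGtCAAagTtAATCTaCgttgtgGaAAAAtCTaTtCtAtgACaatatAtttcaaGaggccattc
Serpina3n: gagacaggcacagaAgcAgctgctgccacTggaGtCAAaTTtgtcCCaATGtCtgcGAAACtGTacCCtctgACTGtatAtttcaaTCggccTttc
In each set the first bases of the stretch, which encode the hinge, carry fewer capitals than its middle. Identity is given as a share of the longer stretch, and over coding sequences as a share of alignment positions, gaps included. Serpinb6c and Serpinb6a were identical at 64.5% in this stretch and at 85.8% over the coding sequence of their most abundant transcripts. Serpinb9b and Serpinb9 were identical at 70.7% of the stretch and 85.3% of the coding sequence, and Serpina3i and Serpina3n at 77.1% and 83.0%. In the stretch, Serpinb6b was identical to Serpinb6c at 65.6% and to Serpinb6a at 72.0%, and Serpina3g to Serpina3i at 71.9% and to Serpina3n at 66.7%. The most abundant transcripts of Serpinb6b and Serpina3g have shorter annotated coding sequences, of 774 and 744 bases, against 1134 to 1254 bases in the other Serpinb6 and Serpina3 copies shown. Over coding sequences of such unequal length, bases absent from the shorter copy counted as differences, so these values cannot be set against the stretch. They were 59.1% and 57.6% for Serpinb6b with Serpinb6c and Serpinb6a, where 672 and 655 bases were identical. For Serpina3g with Serpina3i and Serpina3n they were 42.4% and 40.7%, where 560 and 549 bases were identical.

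Values are TPM (transcript abundance scaled for transcript length and to the same sum in each library) and estimated counts, both summed over the transcripts of a gene. Depth ran from 12093009 to 24050167 estimated counts per library, where 3 counts are worth 0.125 to 0.248 CPM (counts scaled to library size). Differences were tested on the counts with edgeR's quasi-likelihood test, adjusted by the Benjamini-Hochberg method over 13451 genes that passed a filter on low counts, with an adjusted p below 0.05 as the threshold for a call. Of all genes tested 11.4% were called, 4.32% as higher in CSE and 7.12% as lower. Libraries of a group correlated at 0.987 to 0.993 across genes in log2 CPM, and libraries of different groups at 0.981 to 0.987.

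Most serpin genes were silent or close to it in these cells, and a few intracellular ones were abundant. Of the 60 genes, 9 reached a mean of 5 TPM in a group, 6 lay from 1 to 5 TPM and 45 stayed under 1 TPM. In 20 genes no count was listed in any of the 6 libraries. The filter was passed by 17 genes, and these are the more abundant ones, not the family as a whole. Of the 43 genes not tested, 23 had some count, at most 29 over the 3 libraries of a group, and none exceeded 1.08 TPM in a library. Summed over all 60 genes, serpin transcripts made up 525, 485 and 482 TPM in CSE libraries, against 590, 627 and 588 TPM in PBS libraries, with every CSE library under every PBS library. Within these sums Serpinb1a averaged 28.7 TPM in CSE and 88.1 TPM in PBS. The median log2 change was -0.06 over the 12474 genes tested with limma on log2(TPM + 1). It was 0.01 over the 13451 genes tested with edgeR on counts. In bulk samples, fewer cells of a type and less RNA per cell cannot be told apart.

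Among the 17 tested genes 3 rose in CSE, among them Serpina3g and Serpina3i, 3 fell (Serpinb1a, Serpinb6c and Serpinb9b) and 11 were not called. These counts stand beside 4.32% and 7.12% of all genes called in each direction. The groups did not overlap, in CPM scaled by TMM, in 7 of the 17 genes, against 31.2% of all genes tested. Fitted log2 changes were positive in 5 and negative in 12 of the 17, with a median of -0.12, against 0.01 over all genes tested.

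**Figure D1:**
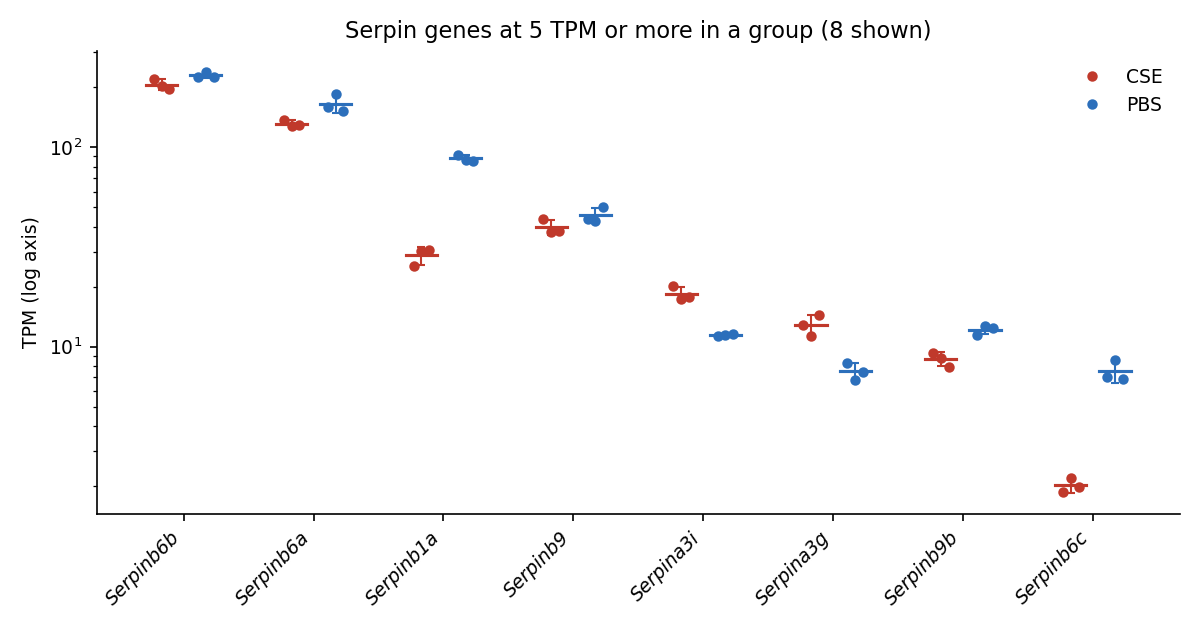
TPM (log axis) of 8 of the 9 serpin genes that averaged 5 TPM or more in a group, ordered by level. Points are libraries, CSE in red left of PBS in blue, and the bar and whiskers are the mean and SD of 3 libraries. Serpinb1a and Serpinb6c lie far lower in CSE, both Serpina3 genes lie higher, and the most abundant gene, Serpinb6b, shifts little.

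**Figure D2:**
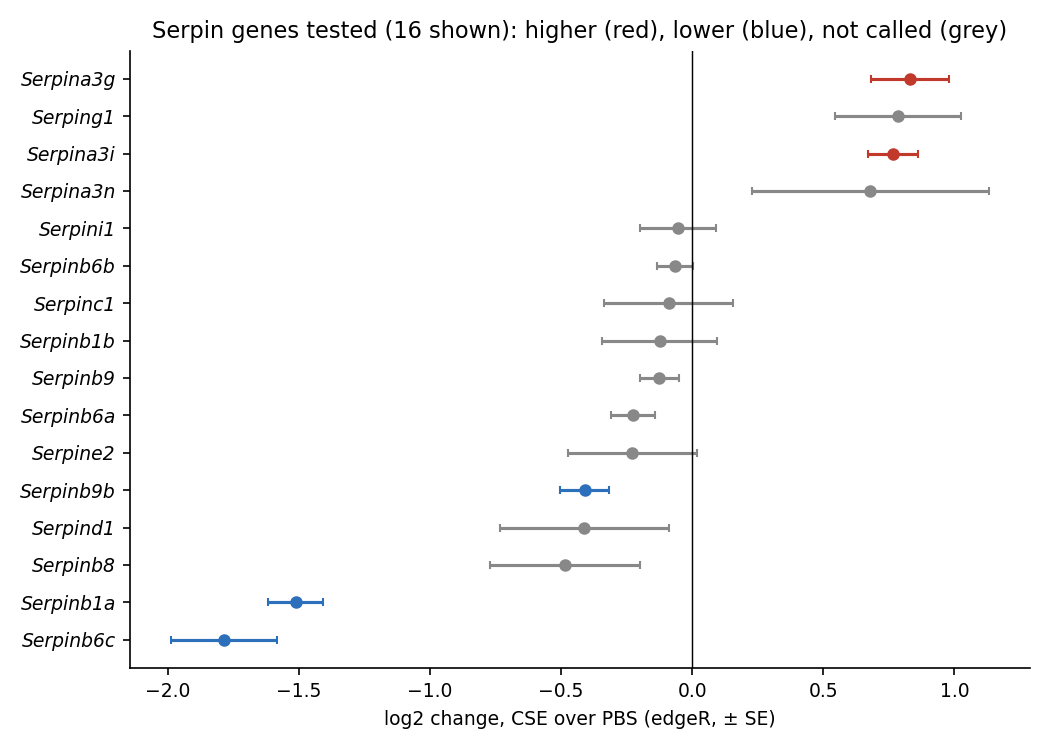
The log2 change of CSE over PBS with its standard error (edgeR) for 16 of the 17 serpin genes tested, ordered from highest to lowest. Red marks 2 of the 3 genes called higher, blue the 3 called lower, and grey marks the 11 that were not called.

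The intracellular clade B serpins carried most of the family's RNA. Their 26 genes summed to 447, 416 and 411 TPM in CSE libraries, against 545, 583 and 542 TPM in PBS libraries. That was 85.4% ± 0.274 of the serpin TPM in CSE and 92.5% ± 0.360 in PBS (SD, n = 3 each). Of the 26 genes 8 were tested and 9 had no count in any library.

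Serpinb1a (ENSMUSG00000044734.16, chr13:32842092-32851185, minus strand) is a mouse copy of the inhibitor of neutrophil elastase, cathepsin G and proteinase 3. It had 25.4, 30.1 and 30.6 TPM in CSE libraries, against 91.9, 86.7 and 85.7 TPM in PBS libraries. The highest CSE value was far below the lowest PBS value, and the drop was seen in every library. In estimated counts it had 338, 808 and 585 in CSE, against 1373, 1676 and 1639 in PBS. The log2 change was -1.51 ± 0.11 (SE; edgeR adjusted p = 1.08e-05). The drop was larger than the spread between libraries. Serpinb1a supplied 5.79% of serpin TPM in CSE and 14.7% in PBS. Of the 31-base words of its main transcript 12.02% occur in other genes, 7.20% in Serpinb1b and 6.62% in Serpinb1c. Serpinb1b, a neighbouring copy, had 6.41, 3.44 and 4.70 TPM in CSE, against 4.71, 4.66 and 4.88 TPM in PBS, with overlapping groups (log2 change -0.12 ± 0.22; edgeR adjusted p = 0.771). The 3 Serpinb1 copies taken as 1 summed feature fell by 1.41 on the log2 scale (SE 0.09; edgeR adjusted p = 8.36e-06), with 31.9, 33.8 and 35.6 TPM in CSE and 96.9, 91.8 and 90.9 TPM in PBS.

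The Serpinb6 copies, counterparts of the human inhibitor of cathepsin G, were the most abundant serpins. Serpinb6c fell and the other 2 tested copies were not called; the difference between copies was not tested. Serpinb6c (ENSMUSG00000052180.15, chr13:33879816-33905708, minus strand) was the least abundant of those tested. It had 16, 39 and 26 counts (1.86, 2.18 and 1.98 TPM) in CSE, against 70.1, 109 and 91.1 counts (7.05, 8.57 and 6.89 TPM) in PBS. The groups were well apart in both units, and the log2 change of -1.78 ± 0.20 (edgeR adjusted p = 0.000214) was the most negative among the 17 genes. Of its words 24.0% occur in other genes, Serpinb6b more than any other single gene.

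Serpinb6b (ENSMUSG00000042842.11, chr13:32965209-32979067, plus strand), known in the mouse as an inhibitor of granzyme A, had 221, 203 and 196 TPM in CSE, against 225, 240 and 227 TPM in PBS. The TPM ranges did not overlap but lay close, the CPM ranges did overlap, and the difference was not called (log2 change -0.06 ± 0.07; edgeR adjusted p = 0.602). Serpinb6a (ENSMUSG00000060147.15, chr13:33917918-34002794, minus strand) had 137, 128 and 129 TPM in CSE, against 159, 185 and 153 TPM in PBS. Here too the ranges were apart in TPM and overlapped in CPM, and the log2 change of -0.23 ± 0.09 was not called (edgeR adjusted p = 0.121). It was called with each library's trend on GC content and length removed (edgeR adjusted p = 0.0191) and without PBS replicate 3 (0.044). Of the words of Serpinb6a 25.8% occur in other genes, 16.3% in 1110046J04Rik. Serpinb6a and Serpinb6b together made up 68.0% of serpin TPM in CSE and 65.8% in PBS. The other 2 copies, Serpinb6e with 1 count in all and Serpinb6d with none, were not tested. The 5 Serpinb6 copies summed to 361, 333 and 327 TPM in CSE, against 391, 433 and 387 TPM in PBS, and their summed count was not called (log2 change -0.14 ± 0.07; edgeR adjusted p = 0.278).

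Reads of Serpinb6a are shared among 17 annotated transcripts. The estimate for Serpinb6a-201 was 1.65, 17.4 and 10.6 TPM in CSE libraries, against 56.4, 56.9 and 50.6 TPM in PBS libraries. Serpinb6a-202 had 65.9, 70.7 and 74.4 TPM in CSE, against 66.1, 42.1 and 52.6 TPM in PBS. Serpinb6a-203 had 60.3, 34.6 and 40.1 TPM in CSE, against 20.2, 75.3 and 37.3 TPM in PBS. The groups were apart for the first of these transcripts and overlapped for the others. In a fit over 33930 transcripts, chosen after seeing the data, none of the Serpinb6a transcripts was called, and the log2 change of Serpinb6a-201 was -2.32 ± 0.69 (edgeR adjusted p = 0.281). Of the 31-base words of these transcripts, 98.2% for Serpinb6a-201, 92.4% for Serpinb6a-202 and 100% for Serpinb6a-203 also occur in other transcripts of the gene, so few reads can tell them apart. Serpinb6a-201 has an exon of 168 bases (chr13:33935627-33935794) that overlaps no exon of Serpinb6a-202 or Serpinb6a-203. Its bases are not particular to Serpinb6a-201, since exons of other transcripts of the gene, Serpinb6a-206 among them, overlap it.

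**Figure D3:**
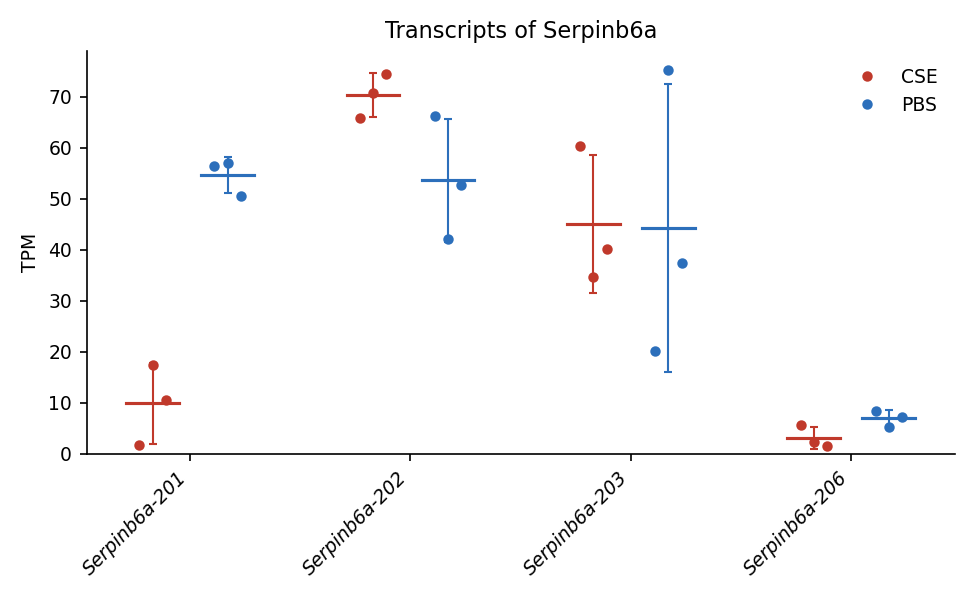
TPM of the 4 most abundant Serpinb6a transcripts, with CSE in red left of PBS in blue. Points are libraries, and the bar and whiskers are the mean and SD of 3 libraries. Serpinb6a-201 lies at 1.65 to 17.4 TPM in CSE and 50.6 to 56.9 TPM in PBS, and Serpinb6a-203 spreads widely within both groups.

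Serpinb9 (ENSMUSG00000045827.10, chr13:33003250-33017957, plus strand), the inhibitor of granzyme B, had 43.5, 37.4 and 38.0 TPM in CSE, against 43.8, 42.7 and 50.3 TPM in PBS. The groups overlapped and the log2 change of -0.13 ± 0.07 was not called (edgeR adjusted p = 0.324). Its close copy Serpinb9b (ENSMUSG00000021403.3, chr13:33027416-33041884, plus strand) had 9.29, 8.81 and 7.89 TPM in CSE, against 11.4, 12.6 and 12.4 TPM in PBS. All CSE values lay below all PBS values, and Serpinb9b fell by 0.41 on the log2 scale (SE 0.09; edgeR adjusted p = 0.0158). That call was lost without CSE replicate 2 (edgeR adjusted p = 0.0611) or CSE replicate 3 (0.0885). The 7 Serpinb9 copies as 1 sum had 54.1, 47.2 and 46.7 TPM in CSE, against 55.9, 56.4 and 63.3 TPM in PBS, and were not called (log2 change -0.17 ± 0.07; edgeR adjusted p = 0.148). Serpinb8, an inhibitor of furin, was lower in level, at 0.783, 0.566 and 0.912 TPM in CSE, against 1.08, 1.20 and 0.918 TPM in PBS, and was not called (log2 change -0.49 ± 0.29; edgeR adjusted p = 0.318).

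Clade A, which holds the secreted inhibitors of blood plasma, was mostly silent. Of its 24 genes 10 had no count in any library and 3 were tested, all of them Serpina3 copies. The clade summed to 35.4, 30.2 and 33.6 TPM in CSE, against 21.2, 19.9 and 20.1 TPM in PBS, with groups well apart. Among the 6 copies of Serpina1, which encode alpha-1 antitrypsin, the plasma inhibitor of neutrophil elastase, 4 had no count and the other 2, Serpina1e and Serpina1f, had 1 or 2 counts over all 6 libraries.

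Serpina3 copies in the mouse stand in for a single human gene, antichymotrypsin. Serpina3i (ENSMUSG00000079014.4, chr12:104263122-104269372, plus strand) had 20.2, 17.4 and 17.8 TPM in CSE, against 11.3, 11.5 and 11.5 TPM in PBS. The PBS libraries were nearly equal and all CSE libraries lay above them, and the log2 change was 0.76 ± 0.10 (edgeR adjusted p = 0.000454). Serpina3g (ENSMUSG00000041481.16, chr12:104236245-104241939, plus strand), described in the mouse as an intracellular inhibitor of lysosomal cathepsins, had 12.8, 11.2 and 14.3 TPM in CSE, against 8.31, 6.82 and 7.48 TPM in PBS. The groups were again apart, with a log2 change of 0.83 ± 0.15 (edgeR adjusted p = 0.00465). Serpina3n, an acute-phase serpin, had 1.31, 0.469 and 0.964 TPM in CSE, against 0.664, 0.694 and 0.363 TPM in PBS, and was not called (log2 change 0.68 ± 0.45; edgeR adjusted p = 0.379).

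These copies share sequence, so counts may be lent between them. Of the words of Serpina3g 30.1% occur in other genes and of those of Serpina3i 26.7%. The neighbouring pseudogene Serpina3h, which is no protein-coding gene, had 9.31, 8.29 and 12.9 TPM in CSE, against 7.20, 5.55 and 7.47 TPM in PBS (log2 change 0.70 ± 0.22; edgeR adjusted p = 0.073). As 1 summed feature the 10 protein-coding Serpina3 copies rose, with 34.5, 29.4 and 33.3 TPM in CSE, against 20.3, 19.0 and 19.4 TPM in PBS (log2 change 0.79 ± 0.10; edgeR adjusted p = 0.000392). The sum leaves out Serpina3h, in which 15.8% of the words of Serpina3i and 14.9% of those of Serpina3g occur. Counts may therefore still be lent between the pseudogene and the sum. This sum and that of the Serpinb1 copies kept their call and direction in all 11 alternatives run for them.

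Among copies too low to test, Serpina3f had 15 counts in CSE libraries together and 1 in PBS libraries together. With depth taken into account the ratio was 14.4 (95% counting interval 2.22 to 608), and the exact permutation test over libraries, two-sided, gave p = 0.1, the smallest it allows with 3 libraries against 3. Serpina10, the inhibitor that acts with protein Z on clotting factors, had 14 counts in CSE and 28 in PBS, a ratio of 0.481 (0.234 to 0.945; exact permutation p = 0.1). Intervals on counts cover counting error only. Serpina10 and Serpina3f were chosen after their values were seen, and neither was called in a fit with no filter on low counts, which called the same 6 genes.

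**Figure D4:**
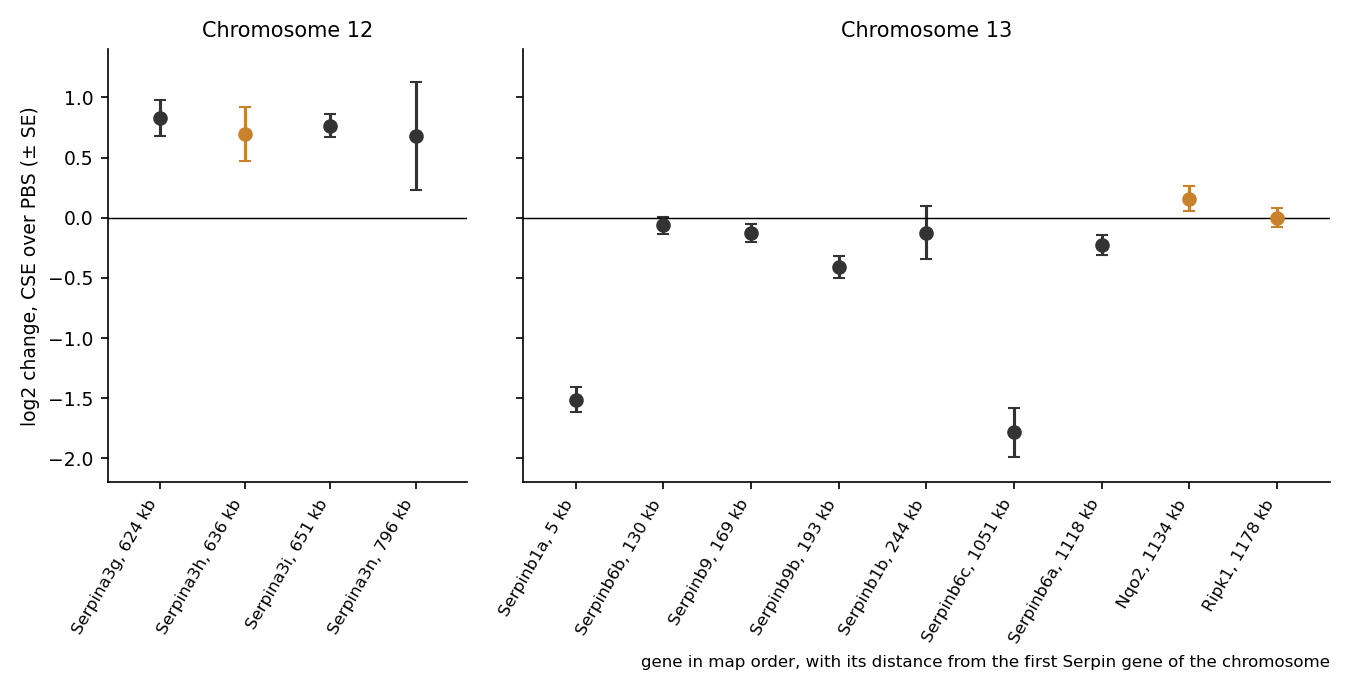
The log2 change of CSE over PBS with its standard error (edgeR) for the tested genes of both serpin clusters, in map order with each gene's distance from the first Serpin gene of its chromosome. Serpin genes are black, and the Serpina3h pseudogene and the neighbours Nqo2 and Ripk1 are orange. The chromosome 12 genes all lie above 0, and on chromosome 13 Serpinb1a and Serpinb6c lie far below the genes between and after them.

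Of the 60 genes 23 lie within 799.5 kb of chromosome 12 (103614786 to 104414329) and 15 within 1160.7 kb of chromosome 13 (32842092 to 34002794). On chromosome 12, 3 were tested and 2 rose. On chromosome 13, 7 were tested and 3 fell, and the other 4, which include the most abundant serpin genes, were not called. The neighbouring genes Nqo2 (log2 change 0.16 ± 0.10; edgeR adjusted p = 0.367) and Ripk1 (edgeR adjusted p = 0.992) were not called either. Nqo2 lies within the span of Serpinb6a on the opposite strand. Ripk1, also on the opposite strand, overlaps the side where transcription of Serpinb6a begins. The strand setting of the libraries is not given in the sources used here, so reads of overlapping exons cannot be told apart.

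Outside clades A and B, 10 genes remained and 6 were tested. Serpine2, protease nexin 1, an inhibitor of thrombin and urokinase, had 0.860, 0.767 and 0.806 TPM in CSE, against 0.847, 1.07 and 1.04 TPM in PBS, and was not called (log2 change -0.23 ± 0.25; edgeR adjusted p = 0.606). Most of this TPM was assigned to Serpine2-206, which is annotated as a retained intron. Its share was 74.7% in CSE replicate 1, 78.3% in PBS replicate 1 and 100% in the other libraries. Protein-coding transcripts of Serpine2 had TPM only in CSE replicate 1 and PBS replicate 1, each at most 0.127 TPM.

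Serping1 (ENSMUSG00000023224.12, chr2:84765387-84775444, minus strand) encodes the C1 inhibitor, which blocks the complement proteases C1r and C1s and the lectin-pathway proteases. It had 32, 50 and 40 counts (2.64, 2.08 and 2.18 TPM) in CSE, against 17, 27 and 26 counts (1.22, 1.496 and 1.56 TPM) in PBS. The groups did not overlap, but the log2 change of 0.79 ± 0.24 did not pass the threshold (edgeR adjusted p = 0.0617). The same gene missed the threshold in each of the 18 alternatives that could be run for it, with adjusted p-values from 0.0564 to 1.

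The other tested serpins were low and not called. Serpini1, neuroserpin, an inhibitor of tissue plasminogen activator, had 2.89, 3.20 and 3.11 TPM in CSE, against 3.15, 3.55 and 3.83 TPM in PBS (log2 change -0.05 ± 0.14; edgeR adjusted p = 0.857). Serpind1, heparin cofactor II, a thrombin inhibitor, had 0.973, 0.908 and 0.559 TPM in CSE, against 1.03, 1.49 and 0.891 TPM in PBS (log2 change -0.41 ± 0.32; edgeR adjusted p = 0.459). Serpinc1, antithrombin, had 2.26, 1.62 and 1.56 TPM in CSE, against 1.79, 2.73 and 1.63 TPM in PBS (log2 change -0.09 ± 0.25; edgeR adjusted p = 0.858). The groups overlapped in all 3, and 58.9% of the words of Serpinc1 also occur in its neighbour Zbtb37, so its level is uncertain. Serpinf1, which encodes a secreted serpin that inhibits no protease, had 13 counts in CSE and 24 in PBS and was not tested.

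Transcript by transcript, 93 serpin transcripts had a TPM above 0 and 25 of them, in 17 genes, were tested. Of these 2 rose, 1 of them Serpina3i-201 (edgeR adjusted p = 0.0478), and Serpinb1a-201 fell (0.0102), against 0.908% of all transcripts called, 0.318% as higher and 0.589% as lower. Serpinb6c-201 was not called (log2 change -1.97 ± 0.30; edgeR adjusted p = 0.0524). Serpina3i-201 lost its call with any 1 library left out (edgeR adjusted p from 0.1 to 0.229). Serpinb1a-201 lost its call without any 1 of the CSE replicates or without PBS replicate 3 (0.0642 to 0.0857).

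Genes for proteases that serpins are known to block moved in both directions. Of 33 such genes 13 were tested, 3 rose, 2 fell and 8 were not called, against 4.32% of all genes tested called higher and 7.12% called lower. Their median log2 change was -0.11, against 0.01 over all genes tested. Plat, tissue plasminogen activator, had 126, 128 and 117 TPM in CSE, against 206, 218 and 240 TPM in PBS, and fell by 0.76 ± 0.07 on the log2 scale (edgeR adjusted p = 4.86e-05). Plau, urokinase, had 2.23, 1.97 and 1.80 TPM in CSE, against 3.49, 3.68 and 5.50 TPM in PBS, and fell by 1.01 ± 0.20 (edgeR adjusted p = 0.00791). Both activators of plasminogen were thus lower in every CSE library than in any PBS library. Plau was chosen after its value was seen.

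Complement proteases that Serping1 is known to block were the 3 that rose. Masp1 had 101, 88.8 and 86.5 TPM in CSE, against 51.6, 53.8 and 57.8 TPM in PBS (log2 change 0.83 ± 0.07; edgeR adjusted p = 2.85e-05). C1ra had 22.6, 24.5 and 21.5 TPM in CSE, against 16.6, 17.9 and 18.3 TPM in PBS (0.46 ± 0.08; 0.00293). C1s1 had 7.43, 6.72 and 5.998 TPM in CSE, against 3.73, 2.74 and 3.88 TPM in PBS (0.79 ± 0.14; 0.00415). The groups were apart in each, and the call of C1ra was lost in limma on log2(TPM + 1) (adjusted p = 0.0532). With no filter on low values the same limma test also lost the calls of C1s1 (adjusted p = 0.0805), Plau (0.131) and, among the receptors described next, Lrp1 (0.06). The genes of the neutrophil proteases that Serpinb1a is known for, Elane, Ctsg and Prtn3, and that of plasminogen, Plg, were listed at 0 in all 6 libraries.

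**Figure D5:**
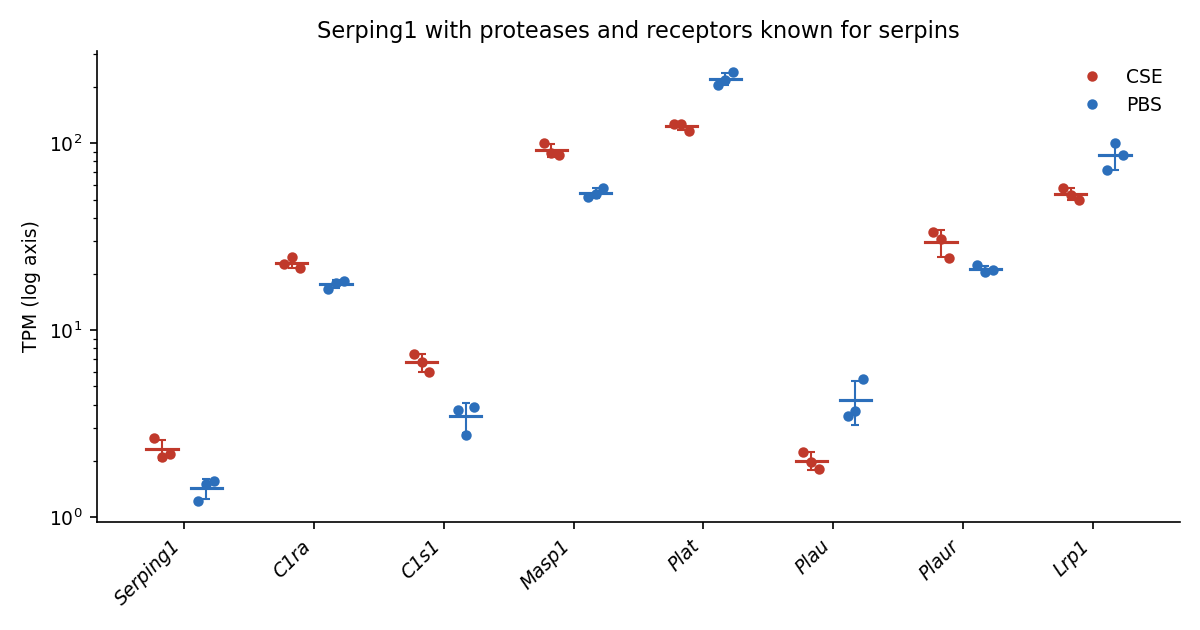
TPM (log axis) of Serping1 with the complement proteases C1ra, C1s1 and Masp1, and of the plasminogen activators Plat and Plau, the urokinase receptor Plaur and the clearance receptor Lrp1. Points are libraries, CSE in red left of PBS in blue, and the bar and whiskers are the mean and SD of 3 libraries. The 4 genes on the left and Plaur lie higher in CSE, while Plat, Plau and Lrp1 lie lower.

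Of the receptors and cofactors known for serpins, Lrp1 and 3 others fell in CSE, and the urokinase receptor and Lrp8 rose. Of 13 genes 11 were tested, 2 rose, 4 fell and 5 were not called, beside the same 4.32% and 7.12% of all genes tested. Their median log2 change was -0.13, against 0.01 over all genes tested. The genes that fell include Lrp1, whose product clears complexes of serpins with proteases, its relative Lrp2, and the heparan sulfate proteoglycan Sdc1. Lrp1 had 58.0, 53.2 and 49.9 TPM in CSE, against 72.2, 100 and 86.6 TPM in PBS (log2 change -0.66 ± 0.07; edgeR adjusted p = 0.000144). Lrp2 had 30.5, 28.1 and 25.3 TPM in CSE, against 50.3, 53.0 and 61.0 TPM in PBS (-0.91 ± 0.08; 2.87e-05). In both genes every CSE library lay under every PBS library. The log2 change of Sdc1 was -0.44 ± 0.08 (edgeR adjusted p = 0.0044). Those that rose were Plaur, the urokinase receptor, with 33.4, 30.9 and 24.2 TPM in CSE, against 22.2, 20.4 and 21.0 TPM in PBS (log2 change 0.56 ± 0.11; edgeR adjusted p = 0.00875), and Lrp8 (0.40 ± 0.08; 0.0091). Both were chosen after their values were seen, and both calls were lost when log2(TPM + 1) was tested with limma (adjusted p = 0.0628 and 0.259).

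Other inhibitors of proteases, which are no serpins, showed no call. Of 16 genes 8 were tested and edgeR called 0, against 4.32% of all genes tested called higher and 7.12% called lower. With so few genes tested, 0 calls cannot be told from those shares. Spint2 and Slpi were the 2 at an unadjusted p below 0.05, and the median log2 change was -0.03. DESeq2 and limma-voom also called 0 of the list, whereas limma on log2(TPM + 1) called Spint2 lower (adjusted p = 0.0431). Spint2, a membrane-bound Kunitz inhibitor, had 60.7, 57.7 and 57.7 TPM in CSE, against 73.2, 69.8 and 72.2 TPM in PBS (log2 change -0.21 ± 0.08; edgeR adjusted p = 0.119). Slpi, an inhibitor of neutrophil elastase, had 2.78, 3.63 and 3.07 TPM in CSE, against 1.13, 2.90 and 1.68 TPM in PBS (0.90 ± 0.40; 0.181). Pzp (-0.22 ± 0.19; 0.495) and Cstb (0.24 ± 0.23; 0.558) were not called.

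Markers of some cell types differed between the groups as well. Calls in these lists stand beside 4.32% of all genes tested called higher and 7.12% called lower. Lists with 2 or 3 genes tested are too small to be set against those shares. Summed TPM of 6 epithelial markers, mostly Krt19, lay at 710 to 804 in CSE, against 1281 to 1396 in PBS, and 3 of the 5 tested fell. Summed TPM of 4 mesothelial markers lay at 60.8 to 69.1 in CSE, against 195 to 220 in PBS, with 3 of 4 lower. Those of 6 fibroblast markers, mostly Dcn, lay at 477 to 544 in CSE, against 868 to 1126 in PBS, with 1 higher and 2 lower of 3 tested. In these 3 marker lists the sums of the groups were well apart. The epithelial genes Krt8, Krt19 and Nkx2-1 were abundant in both groups. Cdh1 and Epcam were low, with means of 2.98 and 1.54 TPM in CSE, against 6.04 and 2.36 TPM in PBS. Krt18 was lower still, with means of 0.168 TPM in CSE and 0.356 TPM in PBS. Alveolar type 2 markers summed to 30.3 to 35.8 TPM in CSE, against 36.3 to 41.0 TPM in PBS, with Sftpa1 at 0 and 1 of 3 tested lower, and Abca3 made up most of the sum. Leukocyte markers, with Adgre1 at 0 and 1 of 3 tested higher, summed to 5.19 to 7.42 TPM in CSE, against 4.89 to 7.95 TPM in PBS. Endothelial markers, with Cdh5 at 0 and neither of the 2 tested called, summed to 1.42 to 3.41 TPM in CSE, against 2.28 to 2.90 TPM in PBS. Hepatocyte markers, with Ttr and Fgb at 0 and none tested, stayed at or below 0.203 TPM in CSE and 0.248 TPM in PBS. The sums of the leukocyte, endothelial and hepatocyte lists were low and overlapped between groups. The part of the epithelial, alveolar type 2, mesothelial and fibroblast shifts in the serpin results was not tested.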

How the data were processed

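RNA-seq of 3 CSE and 3 PBS libraries of MLE-12 cells was used, grouped and numbered by the sample titles. The deposited files list 118489 transcripts with estimated counts and TPM, per the file headers, whose columns are those of kallisto. The authors' TPM values are scaled for length and to 1 sum per library. Tools in the submitters' processing notes are DESeq2 1.40.2, FastQC 0.12.1, fastp 0.20.1 and kallisto 0.46.2, with the build GRCm38. The sources used here give no index, trimming or strand setting. Reads that fit several transcripts are divided by kallisto's model, so values of close copies are estimates.

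Transcripts were matched by identifier to GENCODE vM21 (116816, 98.6%) and summed per gene, and summed counts were rounded to whole numbers. Genes passing filterByExpr (minimum count 10) were scaled by TMM (factors 0.977 to 1.03) and tested for treatment with the quasi-likelihood test of edgeR (two-sided), and p-values were adjusted over all of them by the Benjamini-Hochberg method. The biological coefficient of variation was 9.17%. Protein-coding copies sharing a symbol up to the last letter were also summed and tested as single features. Shared sequence was counted in 31-base words of each gene's most abundant transcript. Reactive centre stretches were found in translated reading frames and aligned in pairs. The procedure was tested on simulated counts.

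The serpin genes, the 3 gene lists, the cell type markers and the tests were chosen with earlier results of these data known. Named genes were every serpin called or with a mean of at least 5 TPM in a group and all Serpinb6 copies, others with at least 1 TPM, and the 4 members of smallest p of each list; a few genes these rules name are not reported here. Versions were Python 3.11.15, Biopython 1.88, scipy 1.17.1, pandas 2.3.3, matplotlib 3.10.9, DESeq2 1.42.0, limma 3.58.1, edgeR 4.0.16 and R 4.3.3.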

Additional observations from a re-analysis of the deposited data

How the results depend on the processing

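Across 20 alternative settings, 482 of 514 values of named genes and copy sums kept their direction and their side of the threshold, 27 kept the direction and lost the call, 5 gained a call and 0 reversed. The number of serpin genes called higher was 3 in all but 3 alternatives: 1 when tested against a 1.5-fold change, 2 in limma on log2(TPM + 1) with no filter, and 2 with copies as single features. The number called lower was 2 to 4, 2 where Serpinb9b lost its call or Serpinb6c had no value and 4 where Serpinb6a gained one. It was 1 when copies were single features, since Serpinb1a is then part of a sum and Serpinb6c and Serpinb9b are inside sums that were not called. Leaving out each library in turn gave 3 higher throughout and 2 to 4 lower. The transcript fit and the alternatives for list genes were chosen after seeing the data. Serpina3g lost its call in limma on log2(TPM + 1) with no filter (adjusted p = 0.058). Tested against a 1.5-fold change, neither Serpina3g nor Serpina3i was called (edgeR adjusted p = 0.714 and 0.521). A minimum mean of 5 CPM leaves no value for Serpinb6c and Serping1.

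The replicate numbers showed no sign of pairing: same-number correlations of deviations were -0.124, 0.0061 and -0.0594, against -0.0854 to 0.129 for different numbers. Deviations were taken within groups of 3 libraries, so these values cannot decide whether libraries were paired. With the replicate block 3 serpin genes were higher and 3 lower, and 331 and 691 of all genes, against 581 and 958 without it. Of all calls 37.8% were higher in CSE, against 49.5% (914 higher and 931 lower) with the GC and length trend removed, 47.9% with no filter, 49.8% without PBS replicate 1 and 22.4% (224 and 774) with limma on log2(TPM + 1). Depth limits the 43 genes not tested, where 3 counts correspond to 0.125 to 0.248 CPM.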
